A study of Drosophila melanogaster with 3 samples.

Results

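MCM2-7 binding sites were followed along the left arm of chromosome 3 (3L) in S2-DRSC cells, a male cell line derived from late-stage Drosophila melanogaster embryos. The sites were chosen by position alone: an interval of the series-wide peak list was taken when it lay on 3L and its centre fell at or below 22500000 bp (FlyBase release 5.1). This gave 1053 of the 5726 intervals of the list and left 27 intervals of 3L past the limit, towards the centromere. The chromatin immunoprecipitation and sequencing (ChIP-seq) samples were 2 MCM immunoprecipitations, called replicate 1 and replicate 2, and 1 input DNA sample, which had no peak list here. All samples came from unsynchronised cultures of the same line and are labelled as separate extractions. The labels do not say whether separate cultures were used, and the differences between replicates may be technical.

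The MCM2-7 complex is a ring of related subunits that forms the core of the replicative DNA helicase. It is loaded onto DNA as an inactive double ring at origins of replication before S phase and is activated later, when many loaded rings stay unused. Peaks from an unsynchronised culture therefore average loaded complexes over the cell cycle. The antibody was a mouse monoclonal raised against the yeast complex, with the Walker B motif of the complex listed as its antigen, so the peaks do not separate one subunit from another.

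Most MCM sites on 3L were short. Their median width was 197 bp, with quartiles of 135 and 320 bp, and 662 of them (62.9%) were 100 to 300 bp wide. They covered 307803 bp, or 1.37% of the span. The span held 1749 peaks of replicate 1, whose widths had a median of 131 bp (quartiles 75 and 228 bp). It held 1497 peaks of replicate 2, whose widths had a median of 96 bp (quartiles 44 and 178 bp). The median score, a value per peak given by the authors without a named unit, was 3.76 (2.99 to 4.71) for the sites, 3.45 for replicate 1 and 3.56 for replicate 2.

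Each of the 1053 sites ran exactly over overlapping peaks of both replicates, so the sites are positions found in both immunoprecipitations. In 1012 sites there was 1 peak of each replicate, and the site's score was their mean. The other 41 sites joined more peaks, at most 2 of a replicate.

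The first and last sites were at 129389 to 129569 bp (MCM_2127, score 4.25) and 22281688 to 22281831 bp (MCM_3179, score 5.15). Replicate 1 began nearer the telomere, with a peak of 80 bp at 55305 bp, and replicate 2 began at 123889 bp. The limit fell inside a stretch without sites: MCM_3179 ended 218169 bp before it, and the next site, MCM_3180 (score 3.38), started at 22710285 bp. Moving the limit within that stretch would not change the membership.

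Neighbouring sites were unevenly spaced. The median distance between centres was 8100 bp, the mean was 21057 bp, and the interquartile range ran from 2129 to 23883 bp. Of the 1052 distances, 249 (23.7%) were under 2 kb and 38 exceeded 100 kb. Counting any other site within 10 kb, 75.9% of sites had a neighbour. The replicate lists were denser, with medians of 4424 bp in replicate 1 and 3607 bp in replicate 2, and shares with a neighbour of 86.7% and 84.0%. Replicate 2 thus had the shorter median spacing although it had fewer peaks. No peaks of one list stood closer than 202 bp in replicate 1 and 200 bp in replicate 2. Measured from edge to edge, the nearest pair of sites was MCM_2466 and MCM_2467, with 194 bp between them (6969942 to 6970135) and scores of 4.31 and 3.57.

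**Figure D1:**
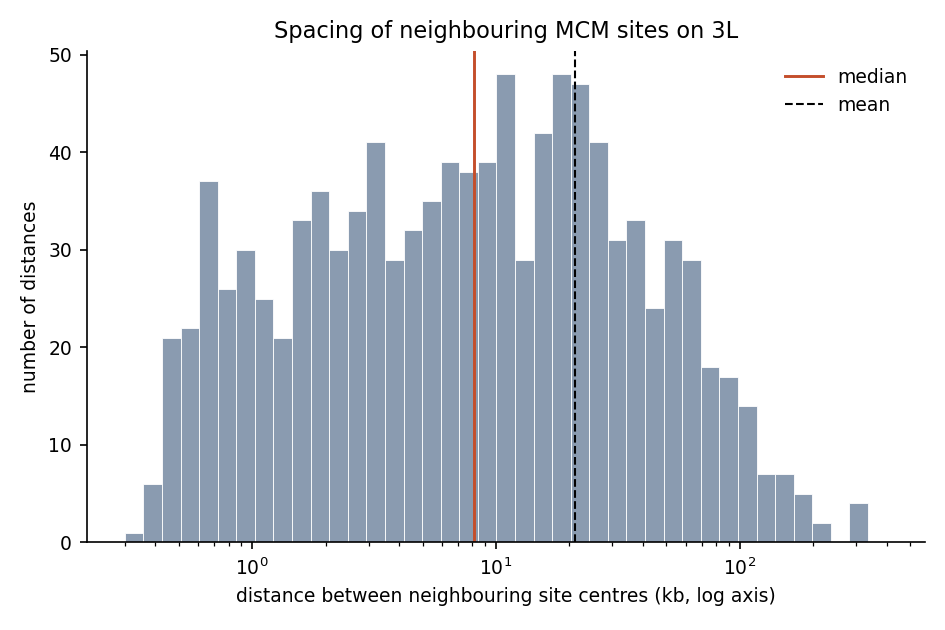
Number of distances between the centres of neighbouring 3L sites by size (kb, log axis), with the median (8100 bp, solid line) and the mean (21057 bp, dashed line). Distances run from under 1 kb to over 300 kb and spread over this whole range.

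Linking sites whose centres were at most 10 kb apart left 254 sites single and placed 799 in runs, and 47 runs of 5 or more held 346 sites (32.9%). The longest run, of 32 sites, lay at 3376664 to 3472428 bp, from MCM_2310 to MCM_2341. Replicate 1 had 38 peaks there and replicate 2 had 88, and the median score was 2.88. The next runs held 18 sites at 10624094 to 10690050 bp and 13 sites at 8666006 to 8698587 bp, where replicate 1 had 25 and 14 peaks against 35 and 27 in replicate 2. In all 3 of these runs replicate 2 had the higher number of peaks, the reverse of the span as a whole.

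Dense zones were defined as windows of 200 kb with at least 18 sites, which is 2 times the median of 9, and neighbouring windows were joined. There were 8 zones, at 1.2 to 1.4, 2.4 to 2.6, 3.2 to 3.6, 8.6 to 8.8, 10.6 to 10.8, 15.4 to 15.6, 16 to 16.2 and 17.8 to 18 Mb. The 9 windows made up 8.00% of the span and held 199 sites (18.9%). The window with the highest count was 10.6 to 10.8 Mb, with 34 sites, 47 replicate 1 peaks and 70 replicate 2 peaks. Next came 3.4 to 3.6 Mb with 27 sites (34 and 69 peaks), 3.2 to 3.4 Mb with 23 (31 and 41), 16 to 16.2 Mb with 22 (33 and 61) and 8.6 to 8.8 Mb with 20 (27 and 40). These 5 windows were also the 5 highest of replicate 2. In replicate 1, 4 of them were among the 5 highest, and the other was 3 to 3.2 Mb with 33 peaks.

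**Figure D2:**
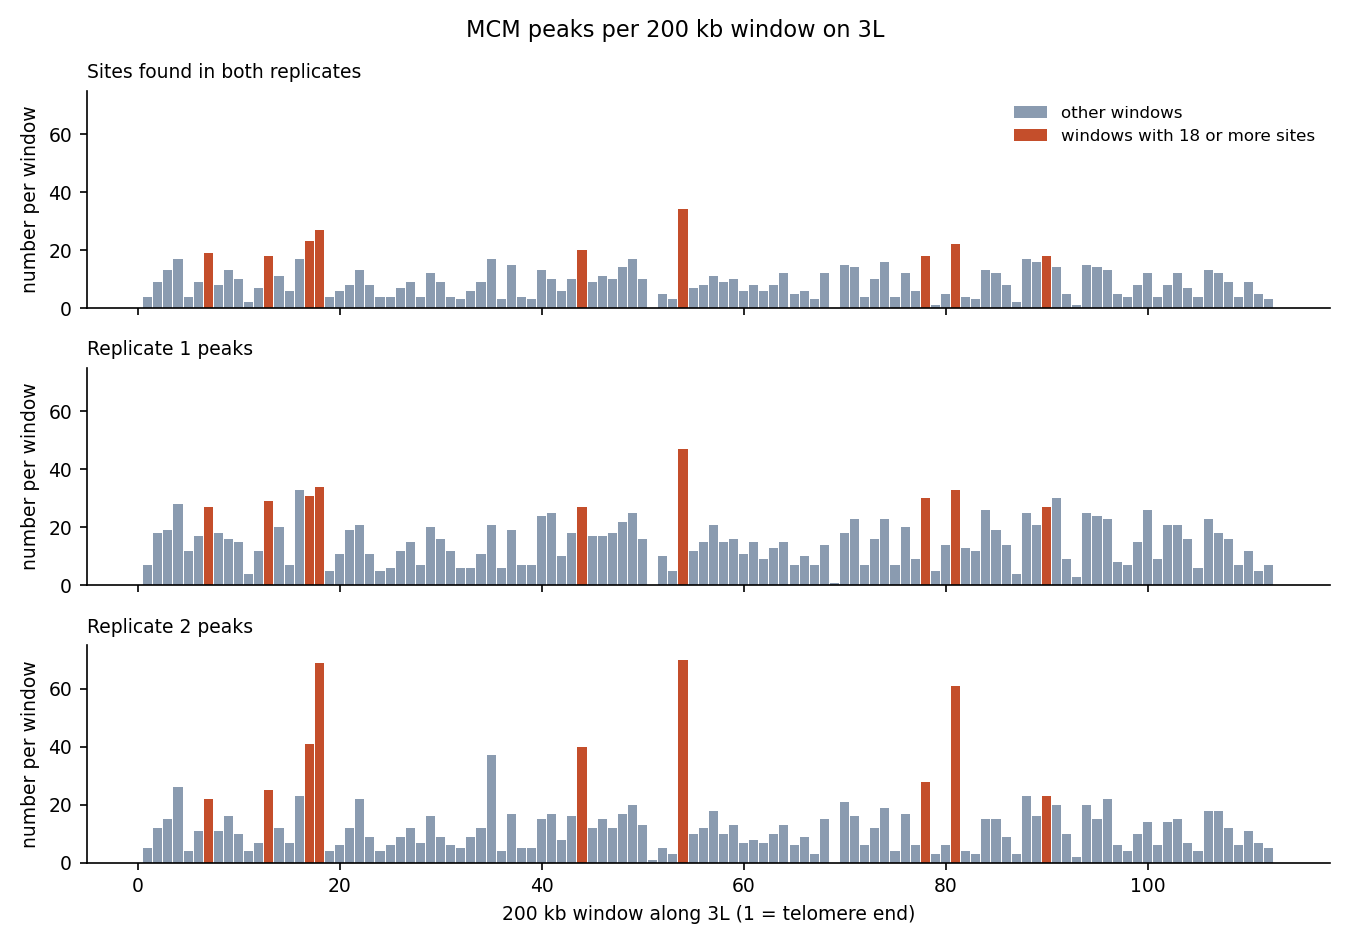
Number of sites (top), replicate 1 peaks (middle) and replicate 2 peaks (bottom) in each of 112 windows of 200 kb along 3L, with window 1 at the telomere. Windows with 18 or more sites are red. In 3 of these windows replicate 1 had 47, 34 and 33 peaks and replicate 2 had 70, 69 and 61, its highest bars.

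With this cutoff and window size, the dense zones were short and scattered. Only the zone at 3.2 to 3.6 Mb took in more than 1 window. Their extent depends on the cutoff: 3 to 3.2 Mb held 17 sites, and 17.4 to 17.6 and 17.6 to 17.8 Mb held 17 and 16. Over the 112 windows the site counts of neighbouring windows were nearly unrelated (Spearman's rho = -0.02, across windows of the same libraries). The rho was 0.09, -0.19 and 0.19 with windows of 100 kb, 500 kb and 1 Mb. The variance of the counts was 3.64 times their mean for sites, 4.57 times for replicate 1 and 10.3 times for replicate 2. At the other end of the range, 2 windows held no site, 10 to 10.2 Mb and 13.6 to 13.8 Mb. The first held no replicate 1 and 1 replicate 2 peak, and the second held 1 and none.

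Sites of the dense zones, when pooled, had a lower median score and a greater median width than the rest. The zones were picked by site count, so score and width were not used to choose them. The median score was 3.24 (interquartile range 2.50 to 4.04) in the zones and 3.88 (3.11 to 4.87) elsewhere. The median width was 267 bp (169 to 460 bp) in the zones and 187.5 bp (130 to 299 bp) elsewhere. The same order held in each replicate: replicate 1 medians were 2.99 and 170 bp in the zones against 3.54 and 123 bp elsewhere, and replicate 2 medians were 2.87 and 118 bp against 3.77 and 91 bp. The quartiles overlapped throughout. None of the 12 sites with a score above 10 lay in a dense zone. These are descriptions of peaks in 2 libraries and were not tested.

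The zones were not alike, and the pooled order did not hold in each of them. At 16 to 16.2 Mb the median site was 546.5 bp wide with a score of 2.79, and at 8.6 to 8.8 Mb it was 285 bp wide with a score of 2.74. The zones at 2.4 to 2.6 Mb and 17.8 to 18 Mb had medians of 195 and 232.5 bp and scores of 3.85 and 3.99, near the values of the span. At 3.2 to 3.6 Mb, 50 sites had a median spacing of 2210 bp and a median score of 3.02. At 15.4 to 15.6 Mb, 18 sites had the shortest median spacing of any zone, 2012 bp.

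Grouping the same sites by run rather than by fixed windows gave the same order, though the groupings are not independent of each other. The median score was 4.10 for the 254 single sites, 3.95 for the 453 sites in runs of 2 to 4, 3.50 for the 249 in runs of 5 to 9 and 2.98 for the 97 in runs of 10 or more. Median widths were 174, 181, 257 and 297 bp in that order. The last of these groups came from only 6 runs. The 19 sites more than 50 kb from any other had a median score of 4.78 (3.93 to 6.65), with replicate medians of 5.28 and 4.18. The 428 sites with a neighbour under 2 kb away had a median score of 3.58, with replicate medians of 3.56 and 3.65.

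**Figure D3:**
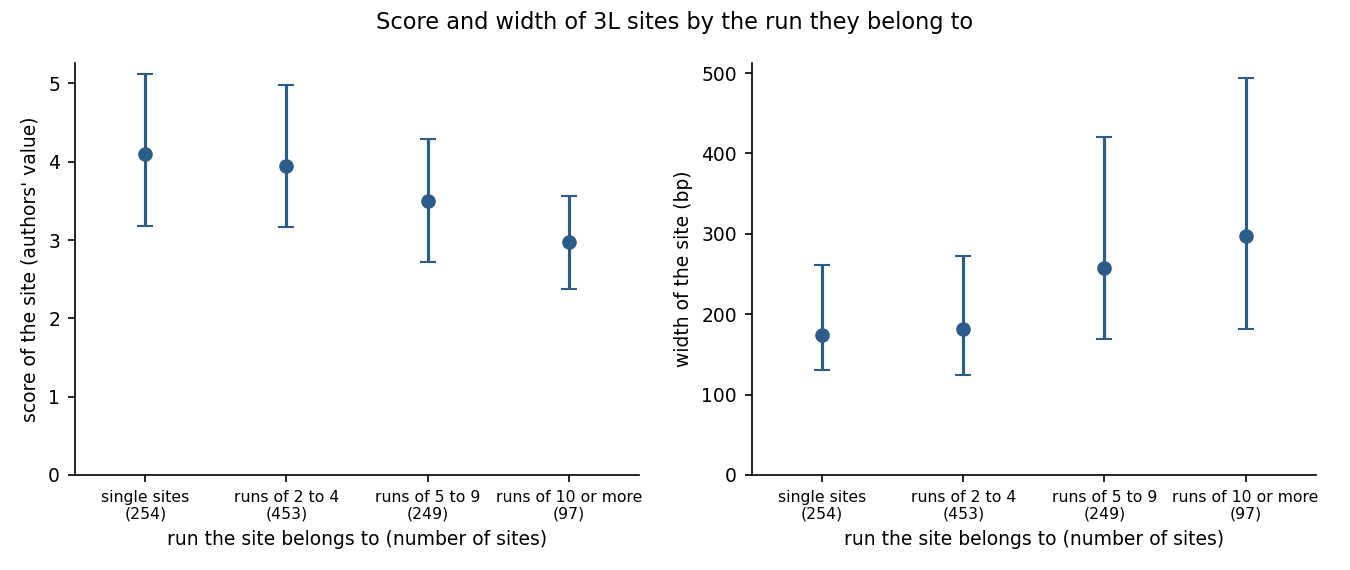
Median score (left, authors' value) and median width in bp (right) of 3L sites, by the number of sites in the run they belong to; bars are the interquartile range over sites. The median score was 2.98 in runs of 10 or more and 4.10 in single sites, and the median widths were 297 and 174 bp.

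Width and score were weakly related, and the direction depended on the list. Over sites, Spearman's rho was -0.18, with median scores of 4.10, 3.95, 3.82 and 3.44 from the narrowest to the widest of 4 groups of near-equal size. Over all replicate peaks in the span it was 0.16 in replicate 1 and 0.05 in replicate 2. The replicate lists also hold peaks found in 1 replicate only, which were both narrow and low in median score. Whether these peaks account for the difference between the lists was not tested.

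The replicates ranked the windows alike but differed in a few of them. Over the 112 windows, Spearman's rho between the peak counts was 0.92, and both lists come from the same cell line and the same kind of library. Replicate 1 had more peaks in 92 windows, replicate 2 in 14, and 6 were equal. The 14 windows in which replicate 2 had more included 5 of the 9 dense windows. They also included 6.8 to 7 Mb, with 17 sites, 21 replicate 1 peaks and 37 replicate 2 peaks, which was picked out after the counts were seen.

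**Figure D4:**
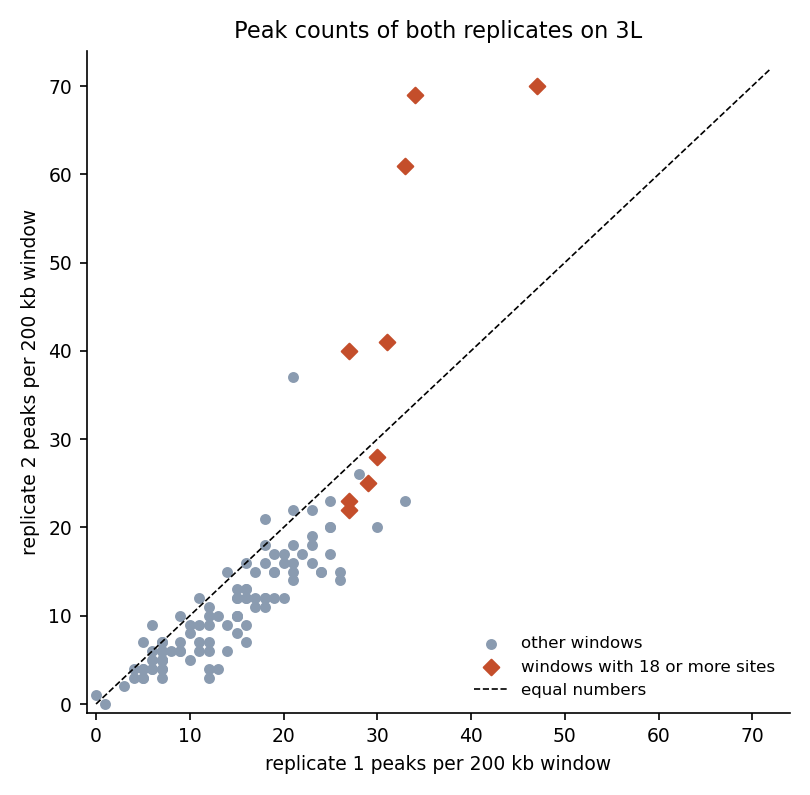
Replicate 1 against replicate 2 peaks in each of 112 windows of 200 kb on 3L; the dashed line marks equal numbers and diamonds are windows with 18 or more sites. Most windows lie below the line, and 5 diamonds lie above it, at 40 to 70 replicate 2 peaks.

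Peaks found in 1 replicate only were placed differently in the 2 lists. Replicate 1 had 686 such peaks, of which 79 (11.5%) lay in the dense zones. Replicate 2 had 411, of which 172 (41.8%) lay there. Per Mb this was 43.9 in the zones and 29.3 elsewhere for replicate 1, against 95.6 and 11.5 for replicate 2. Pooled over the zones, 54.6% of replicate 2 peaks had a match, against 78.6% elsewhere. Replicate 1 peaks were matched in 72.3% of cases in the zones and 58.5% elsewhere. The zones were picked by their number of sites, and each site holds a matched peak of both lists. This favours matched peaks in the zones by construction, so these shares are not independent of the choice of zones. The zones differed in the share for replicate 2. It was lowest at 16 to 16.2 Mb, where 24 of 61 peaks (39.3%) had a match, followed by 53 of 110 at 3.2 to 3.6 Mb, 20 of 40 at 8.6 to 8.8 Mb and 36 of 70 at 10.6 to 10.8 Mb. It was 18 of 28 at 15.4 to 15.6 Mb and 18 of 25 at 2.4 to 2.6 Mb. At 1.2 to 1.4 Mb (19 of 22, 86.4%) and 17.8 to 18 Mb (19 of 23, 82.6%) it was above the share elsewhere.

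Over the whole span, a match, meaning an overlap of 1 bp or more, was found for 1063 of the 1749 peaks of replicate 1 (60.8%, with an exact 95% interval from 58.4 to 63.1). In replicate 2 it was found for 1086 of 1497 (72.5%, from 70.2 to 74.8). The intervals cover counting error only, and neighbouring peaks are not independent. Peaks with a match were wider, with medians of 186 bp against 72 bp without a match in replicate 1, and 113 bp against 38 bp in replicate 2. A wide peak meets the 1 bp rule more easily, so this contrast is partly built into the definition of a match. Scores followed the same order, with medians of 3.70 for matched and 3.07 for unmatched peaks of replicate 1, and 3.77 and 2.66 for those of replicate 2. Of the peaks without a match, 74.3% in replicate 1 and 87.3% in replicate 2 had a site within 10 kb. The share of the span that lies within 10 kb of a site was not computed, so these shares have no baseline.

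Across the 1063 overlapping pairs, the scores had a Spearman's rho of 0.80, and only 3 pairs differed by more than 2-fold. Replicate 1 over replicate 2 had a median log2 ratio of -0.06 (quartiles -0.29 and 0.15). The ratio was lower in 3 zones. At 10.6 to 10.8 Mb its median was 0.820, with replicate 2 higher in 30 of 35 pairs. At 15.4 to 15.6 Mb it was 0.822 (16 of 18), and at 16 to 16.2 Mb it was 0.793 (23 of 25). The other zones had medians from 0.923 (3.2 to 3.6 Mb) to 1.08 (17.8 to 18 Mb), and the rest of the span had 0.966. The zone at 3.2 to 3.6 Mb, with 65 replicate 1 and 110 replicate 2 peaks, thus differed between the replicates more in peak number than in the score of shared peaks.

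Long stretches without a site were spread along the arm. There were 38 of at least 100 kb, which added up to 5.92 Mb (26.3% of the span), and 13, 12 and 13 of them ended in the outer, middle and inner 7.5 Mb of the span. They held 64 replicate 1 peaks, or 10.8 per Mb, and 23 replicate 2 peaks, or 3.88 per Mb. A site needs a peak in both lists, so such a stretch holds no shared peak by construction. The densities of all peaks over the span, 77.7 and 66.5 per Mb, are therefore not a like measure. Peaks found in 1 replicate only had densities of 29.3 and 11.5 per Mb outside the dense zones. Counting peaks of either replicate, 23 stretches of at least 100 kb were left, and the longest was 202 kb.

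The longest stretch, 13506752 to 13838465 bp, was 331714 bp long and ran from MCM_2778 (score 2.49) to MCM_2779 (score 6.40). It held 1 replicate 1 peak of 87 bp with a score of 3.25 and no replicate 2 peak. The second, 9961740 to 10275069 bp, was 313330 bp long and lay between MCM_2625 (score 8.14) and MCM_2626 (score 4.24). It held 1 replicate 1 peak of 54 bp with a score of 11.3. The 2 replicate 2 peaks inside it had a median width of 40.5 bp and a median score of 8.73. None of these narrow peaks overlapped a peak of the other list. Peaks inside a stretch were therefore not always low in score.

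The next 3 stretches were 291778 bp long (4840851 to 5132628), 287891 bp long (17044462 to 17332352) and 223742 bp long (6257814 to 6481555). Replicate 1 had 4, 3 and 0 peaks in them, and replicate 2 had 3, 1 and 1. The stretch at 1970152 to 2151583 bp, the ninth in length at 181432 bp and picked out after the counts were seen, held no peak of either list.

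Site density was similar along the span in parts of 7.5 Mb. From the telomere inwards it was 48.7, 46.7 and 45.1 sites per Mb. Replicate 1 had 77.3, 75.5 and 80.4 peaks per Mb in these parts and replicate 2 had 70.5, 65.3 and 63.7, so the order of the outer and inner parts differed between the replicates. In finer parts of 2.5 Mb the site density ranged from 56.4 per Mb at 2.5 to 5 Mb to 36.0 per Mb at 20 to 22.5 Mb.

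The innermost 2.5 Mb stood at one end of several measures. Sites at 20 to 22.5 Mb had the lowest median width of the 9 parts (148.5 bp) and the highest median score (4.23). Their median spacing of 12092 bp was the longest, and 62.2% had a neighbour within 10 kb, the lowest share. Replicate 2 also had its longest median spacing (8670 bp) and its lowest density (49.2 per Mb) there. Replicate 1 did not: its spacing was 6182 bp and its density 64.4 per Mb there, against 7650 bp and 61.6 per Mb at 12.5 to 15 Mb. Widths were also the lowest of the 9 parts in each replicate, at 105 bp in replicate 1 and 74 bp in replicate 2. The median score was the highest of the 9 parts in replicate 2 (4.37) but only the third in rank in replicate 1 (3.62, against 3.77 at 7.5 to 10 Mb).

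**Figure D5:**
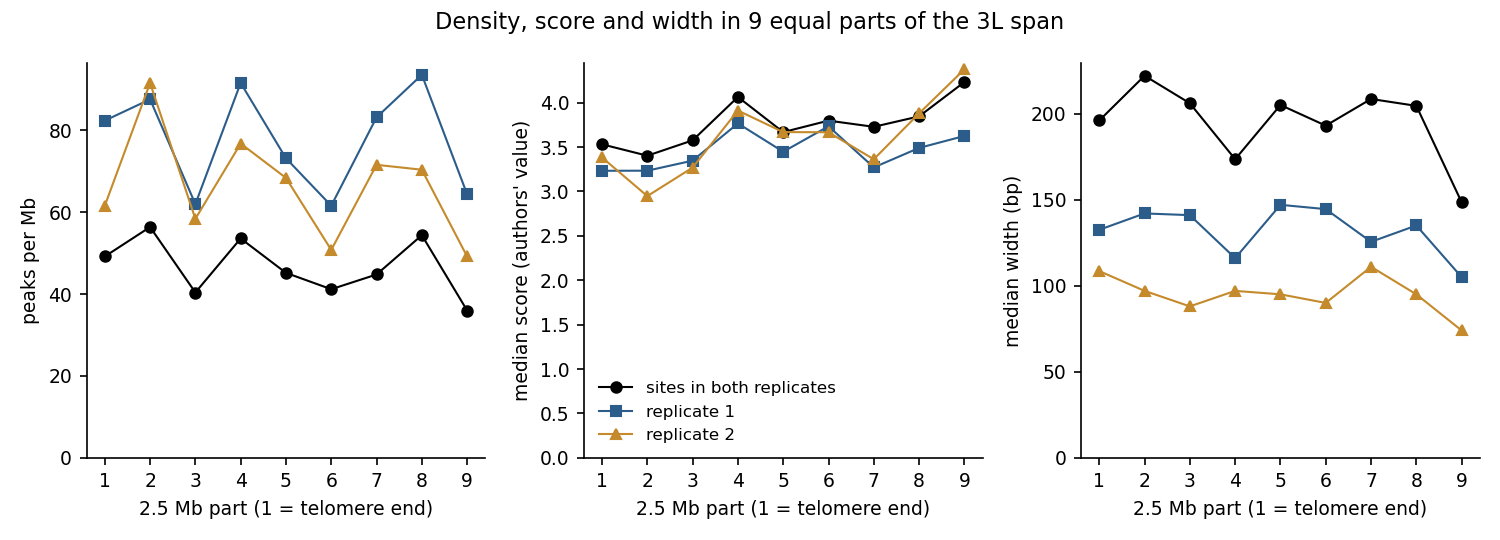
Peaks per Mb (left), median score (middle, authors' value) and median width in bp (right) in 9 parts of 2.5 Mb of the 3L span, with part 1 at the telomere, for sites and for each replicate. Part 9 has the fewest sites per Mb (36.0) and the narrowest peaks in all 3 lists.

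The 10 sites with the highest scores were 67 to 215 bp wide, against quartiles of 135 and 320 bp for all sites. They scored 10.2 to 14.3, and 6 of them had no other site within 10 kb. Among all sites of the span, 24.1% had none. The outer 7.5 Mb held 3, the middle 2 and the inner 5. Replicate 2 scored higher in 8 of the 10, and over all 1063 overlapping pairs replicate 1 scored higher in 442 (41.6%), so most pairs had the same direction.

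The highest, MCM_3114 at 20704653 to 20704788 bp, scored 13.0 in replicate 1 and 15.7 in replicate 2 and lay at the inner end of a site-free stretch of 169764 bp. MCM_2472 at 7150111 to 7150246 bp scored 11.7 and 15.7, with another site 1086 bp away. MCM_3018 at 18453547 to 18453761 bp scored 11.7 and 14.5 and was the only site of its 200 kb window, 57.5 kb from the nearest other. These 3 sites differed by less than 1.5-fold between the replicates.

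The following sites were MCM_2516 at 8153318 to 8153384 bp (11.2 and 12.2 in replicates 1 and 2), MCM_2599 at 9607170 to 9607329 bp (10.1 and 12.1) and MCM_3067 at 19509755 to 19509909 bp (12.4 and 9.50). MCM_3090 at 20090556 to 20090642 bp scored 8.75 and 12.6 and was 88.9 kb from any other site. MCM_2422 at 5790502 to 5790596 bp scored 10.3 and 11.0. The only one of the 10 past 1.5-fold was MCM_2411 at 5601406 to 5601513 bp, with 7.87 in replicate 1 and 12.9 in replicate 2. MCM_3140 at 21248965 to 21249037 bp scored 12.0 and 8.41.

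Large differences between the replicate scores of a site were uncommon. Among sites made of 1 peak of each replicate, the largest ratio was at MCM_3080 (19889534 to 19889633 bp), with 2.09 in replicate 1 and 4.34 in replicate 2. The next were MCM_3025 at 18723879 to 18723974 bp (3.46 and 6.89) and MCM_2837 at 14795223 to 14795361 bp (6.78 and 13.2). In each of them 1 of the 2 peaks was very short, with 9 bp in replicate 1 at MCM_3080, and 7 and 16 bp in replicate 2 at the other two.

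The highest scores in the replicate lists belonged to peaks without a match. In replicate 1 the highest was 52.5, from a peak of 10 bp at 17400401 bp, and in replicate 2 it was 273, from a peak of 3 bp at 10925307 bp. Scores above 10 were held by 17 replicate 1 peaks, 8 of them without a match, and by 31 replicate 2 peaks, 13 of them without a match. Of the 31 in replicate 2, 12 were under 50 bp wide. Some scores were repeated: 41.7% of replicate 1 peaks and 35.5% of replicate 2 peaks shared their exact score with another peak of their list in the span. There were 1290 distinct scores among the 1749 replicate 1 peaks and 1174 among the 1497 replicate 2 peaks. The commonest values were 3.94, seen 19 times, and 3.51, seen 11 times. MCM_3114 and MCM_2472 had the same replicate 2 score.

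Broad MCM intervals were few and mostly in 1 place. Of the 5 sites of 2 kb or more, 4 lay between 605858 and 658426 bp near the telomere. They were MCM_2159 (631820 to 642919 bp, 11100 bp wide), MCM_2161 (648348 to 658426 bp, 10079 bp), MCM_2158 (627770 to 631614 bp, 3845 bp) and MCM_2154 (605858 to 608555 bp, 2698 bp). The fifth, MCM_2888 at 16037957 to 16040482 bp, was 2526 bp wide and lay in the dense zone at 16 to 16.2 Mb. Their scores were low, at 1.20 to 2.08 for the 4 and 3.08 for MCM_2888.

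In the 52.6 kb from MCM_2154 to MCM_2161, 8 sites covered 62.1% of the sequence. Joined over both replicates, none was under 776 bp wide, and their scores ran from 1.20 to 2.34. This stretch made up 10.6% of all bases covered by sites on the arm. The 2 widest sites were broad in both lists. MCM_2161 was 1 peak of 8317 bp in replicate 1 and 1 of 9987 bp in replicate 2, with scores of 1.10 and 1.29. MCM_2159 was 2 peaks of 6611 and 3097 bp in replicate 1 and 1 peak of 11100 bp in replicate 2. Other sites differed: MCM_2155 was 25 bp in replicate 1 and 1121 bp in replicate 2, and MCM_2158 was 2420 and 3845 bp. MCM_2156 was similar in both, with 776 and 737 bp. The 200 kb window that holds this stretch, 0.6 to 0.8 Mb, had 17 sites, 1 fewer than a dense window needs.

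Beside 2L, 3R and X, 3L had a similar density. Arm 2R was not included in the comparison. The span had 46.8 sites per Mb, against 46.9 over 2L, 3R and X together, a ratio of 0.997. The ratio was 0.994 in replicate 1 and 1.01 in replicate 2. The other arms were measured over their whole length, including the part nearest the centromere, and with the whole of 3L the ratio was 0.938. The median width of sites was 197 bp on 3L, 211 bp on 2L, 205 bp on 3R and 218.5 bp on X. The median score was 3.76 on 3L, 3.90 on 2L, 3.79 on 3R and 3.72 on X.

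Median spacing was 8100 bp on 3L, 7941 bp on 2L, 7387 bp on 3R and 6177 bp on X. Among these arms, the variance of peak counts over 200 kb windows placed 3L first in replicate 2 alone. There it was 10.3 times the mean on 3L, 5.76 on 2L, 6.95 on 3R and 7.30 on X. In replicate 1 it was 4.57 on 3L, 5.20 on 2L, 4.16 on 3R and 6.26 on X. For sites it was 3.64 on 3L, 4.18 on 2L, 3.05 on 3R and 5.02 on X. Window count and median score had a negative Spearman's rho on 3L, 2L, 3R and X. Over windows with at least 3 sites it was -0.41 for 3L, -0.33 for 2L, -0.16 for 3R and -0.41 for X. No difference between 3L and another arm was tested, since peaks and windows of 2 libraries are not replicates.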

How the data were processed

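Per the labels' protocols, chromatin was cross-linked, immunoprecipitated, made into size-selected libraries and read from one end by Illumina sequencing. The deposited lists name PeakSeq as their caller in each line and, per the file headers, use FlyBase release 5.1. The score of each peak is the authors' own deposited value, with no unit named in the file. The sources used here do not give the aligner, the PeakSeq settings or the control of each list. Read counts were not used, so depth is unknown and no precision that needs it is given.

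Sites and lists were chosen with earlier results of these data known. Peaks were placed by their centre. Overlap needed 1 bp, and windows were counted from position 1. Binomial intervals are exact (Clopper-Pearson). With 1 group of 2 samples no test was run, and correlations are descriptions. Alternatives were merging sites closer than 1 kb, other windows (100 kb, 500 kb, 1 Mb), neighbour distances of 5 and 20 kb, overlap of 50% of a peak, centres within 500 bp, the higher-scoring 50%, sites under 2 kb and each replicate alone.

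Named regions were the 10 highest-scoring and 5 widest sites, the 5 highest windows and all dense zones, the 5 longest stretches, the 3 longest runs, both end sites, the nearest pair and the 3 largest score ratios. Gene content and sequence at these positions were not analysed here, since no genome of this release was used. The code was tested on simulated data. Figures were drawn with matplotlib 3.10.9, and values computed with SciPy 1.17.1, pandas 2.3.3 and NumPy 2.4.6 under Python 3.11.15.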

Additional observations from a re-analysis of the deposited data

How the results depend on the processing

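Depth is unknown, so the peak numbers of the replicates could not be set against it. No paired analysis was possible because the study has 1 group of replicates. The 44 alternatives run gave values with no test. In 15 the value was counted as little changed. For a count this meant a change of less than 1.5 times, and for overlap a value inside the counting interval. For other measures, some moves smaller than the difference between the replicates still counted as changed.

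From each replicate alone, the values ranged from 1497 to 1749 for the number of peaks, 0.994 to 1.01 for the density ratio of 3L over 2L, 3R and X, 3607 to 4424 bp for the median spacing, 84.0 to 86.7% for peaks with a neighbour within 10 kb, 4.57 to 10.3 for variance over mean in 200 kb windows, 257 to 332 kb for the longest stretch, and 0.904 to 1.04 for the density of the innermost over the outermost 7.5 Mb (0.926 for sites). Both density ratios, below 1 for sites, thus lay above 1 in one replicate and below 1 in the other, so their direction depended on the list. The last was 0.721 with parts of 4.5 Mb.

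The density ratio of 3L over 2L, 3R and X was 0.938 with the whole arm and 1.02, again past 1, in covered bases. Merging sites closer than 1 kb gave a median spacing of 11977 bp and 66.2% with a neighbour. That share was 62.0% within 5 kb and 89.3% within 20 kb. The longest stretch was 202 kb counting peaks of either replicate and 395 kb for the higher-scoring 50% of sites. The share of replicate 1 peaks with a match was 39.6% with an overlap of 50% of the peak, 68.6% by centres within 500 bp and 57.8% in the higher-scoring 50%. For replicate 2 these were 66.1%, 79.7% and 68.1%.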
